A study of Mus musculus with 6 samples.

Results

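The genes described here make sterols, control that synthesis, or move cholesterol into, through and out of cells. They were chosen by name from the known pathway, with earlier results of these data known. Of 34 listed genes, 29 had a named probe set among the 20239 named genes of the arrays, and Acat2, Hmgcs1, Idi1, Soat1 and Nr1h2 are not analysed here. The measured genes were 16 enzymes of synthesis, 5 regulators, 4 genes of intracellular transport and storage, and 4 of efflux and oxysterol sensing. Whole sciatic nerves of 25-day-old mice had been profiled on Affymetrix whole-transcript arrays, 1 array per mouse. The 3 mutants carried DhhCre, a Cre recombinase driven in the Schwann cell lineage, together with floxed alleles of Sip1, also named Zeb2, the gene of a zinc finger repressor. The 3 controls carried the same floxed alleles without Cre. The comparison asks how transcript levels of the nerve differ where Schwann cells have lost this factor. In the labels the mice of a group are biological replicates, and neither strain nor sex is named.

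Myelin is a cholesterol-rich membrane, and Schwann cells make much of that cholesterol themselves. Acetyl-CoA is built up through mevalonate to squalene, squalene is closed to lanosterol, and lanosterol is trimmed to cholesterol. When sterol in the endoplasmic reticulum is low, SCAP escorts SREBP2, the product of Srebf2, to the Golgi for cleavage, and the released factor switches on the genes of synthesis. INSIG proteins hold SCAP back when sterol is high. Oxysterols activate the liver X receptors (LXRs), among them the product of Nr1h3, which switch on the efflux transporters ABCA1 and ABCG1.

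Transcripts of the synthesis enzymes were lower in the mutants at nearly every measured step. Of the 4 measured efflux and oxysterol genes 1 was lower and 3 did not pass. Sterols and enzyme activity were not measured. Of the 16 measured synthesis enzymes, 15 were lower in the mutants, none was higher, and 1, Lbr, did not pass the test (limma, Benjamini-Hochberg adjusted p under 0.05 over all genes). Over all genes 3.89% were lower and 5.74% higher by that rule. The median difference of the 16 enzymes was −1.72 on the log2 scale, against −0.020 for all genes. The 3 mutant values of each of the 15 genes lay below its 3 control values, as they did in 11.8% of all genes. In 14 of the 16 enzymes the level was more than 2-fold lower and in 7 more than 4-fold, and of all genes 1.79% and 0.479% had falls of those sizes.

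Since these enzymes moved together, the stretch before the start of their genes was examined for shared short motifs. RefSeq promoter entries of GRCm38.p6, from 250 bases before to 50 after each start, were found for 13 of the 16 measured enzymes and for 23 of the 29 measured genes. The 120 bases before the start are shown for the 4 enzymes with the largest falls and for Lbr, which did not pass, on each gene's own strand. Capitals mark CCAAT, the letters bound by the factor NF-Y, or GGGCGG, a GC box, on either strand.
Lss, chr10:76531485-76531604, plus strand: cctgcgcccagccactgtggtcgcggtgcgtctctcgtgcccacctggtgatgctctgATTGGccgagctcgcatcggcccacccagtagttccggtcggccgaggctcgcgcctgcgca
Cyp51, chr5:4104698-4104817, minus strand: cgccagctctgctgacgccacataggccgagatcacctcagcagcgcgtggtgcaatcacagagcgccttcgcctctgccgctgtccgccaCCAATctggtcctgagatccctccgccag
Hsd17b7, chr1:169969206-169969325, minus strand: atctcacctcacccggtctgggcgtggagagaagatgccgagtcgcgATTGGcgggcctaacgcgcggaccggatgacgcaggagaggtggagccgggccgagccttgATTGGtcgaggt
Tm7sf2, chr19:6067851-6067970, minus strand: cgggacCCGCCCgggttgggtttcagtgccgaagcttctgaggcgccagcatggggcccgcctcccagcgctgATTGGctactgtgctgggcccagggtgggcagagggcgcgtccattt
Lbr, chr1:181842402-181842521, minus strand: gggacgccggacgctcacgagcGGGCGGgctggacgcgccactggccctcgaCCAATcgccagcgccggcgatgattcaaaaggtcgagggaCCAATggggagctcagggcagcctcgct

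All 13 enzymes with a promoter entry held CCAAT in the window of 300 bases, Lbr included, against 41.9% of the 15651 tested genes with an entry. The nearest upstream copy began between 12 and 136 bases before the start, and Nsdhl also held copies after it, on both strands. GGGCGG was found in 12 of the 13, against 52.6% of all. For genes with several promoter entries, a motif in any of the entries was counted. Neither motif was particular to the enzymes. Of all 23 measured genes with an entry, 20 held CCAAT and 21 held GGGCGG. Mylip, Srebf2 and Cyp27a1, which did not pass, held both. Insig2, which did not pass either, held them only in separate promoter entries. TCACNCCAC, a core of the sterol regulatory element to which SREBP binds, was found in 0 of the 13 and in 1.41% of all. The motifs were searched on both strands, and no copies of different motifs overlapped in the measured members. NF-Y is known to act beside SREBP at sterol genes. A match in letters is no measure of binding, and the absence of a match says only that these letters are not in this window.

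In the mevalonate steps all 4 measured genes fell, with a median difference of −1.17. Mvd encodes the decarboxylase that makes isopentenyl diphosphate. It stood at 8.21, 8.60 and 8.27 in mutants 1 to 3 and at 9.91, 9.87 and 10.29 in controls 1 to 3 (log2 values). Its lowest control exceeded its highest mutant value by more than the spread within either group, and the difference was −1.67 (SE 0.15, 3.17-fold lower, adjusted p = 0.00147). Fdps, which makes farnesyl diphosphate, measured 9.19, 9.20 and 9.23 in the mutants against 10.45, 10.25 and 10.68 in the controls. The mutant values of Fdps were close to identical, and the difference was −1.25 (SE 0.12, adjusted p = 0.00164). The 2 kinases of the pathway fell least. Mvk, which phosphorylates mevalonate, was 9.05, 9.04 and 9.14 in the mutants against 10.13, 9.99 and 10.34 in the controls, a difference of −1.08 (adjusted p = 0.00183). Pmvk, which adds the next phosphate, was 8.36, 8.78 and 8.43 against 9.49, 9.58 and 9.64, a difference of −1.05 (adjusted p = 0.00361). Each of the 4 genes was thus between 2.07-fold and 3.17-fold lower.

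From squalene to lanosterol, all 3 genes fell by at least 4.01-fold. Fdft1, squalene synthase, which commits farnesyl diphosphate to sterols, measured 9.45, 9.47 and 9.64 in the mutants against 11.52, 11.27 and 11.81 in the controls. That is a difference of −2.02 (SE 0.15, adjusted p = 0.000597). Sqle, the squalene epoxidase, was at 9.32, 8.69 and 9.31 in the mutants, with mutant 2 lowest, and at 10.93, 11.03 and 11.37 in the controls. Sqle was 4.01-fold lower (SE 0.20 on the log2 scale, adjusted p = 0.00186). Lss, lanosterol synthase, had the largest fall of all 29 genes. It measured 8.56, 8.60 and 8.67 in the mutants against 11.13, 11.09 and 11.67 in the controls, at 8.61 ± 0.05 against 11.30 ± 0.32 (mean ± SD, n = 3 each). The difference was −2.69 (SE 0.16, 95% confidence interval −3.07 to −2.30, 6.43-fold lower, adjusted p = 0.00034).

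Between lanosterol and cholesterol 8 of 9 genes fell, with a median of −1.78. Cyp51, the lanosterol demethylase, measured 8.59, 7.92 and 8.56 in the mutants against 10.75, 10.85 and 11.35 in the controls. Mutant 2 was again the lowest, and the difference was −2.63 (SE 0.23, 6.19-fold lower, adjusted p = 0.00121). Hsd17b7, the 3-ketosterol reductase, was 9.41, 8.82 and 9.37 against 11.30, 11.20 and 11.93, a difference of −2.27 (SE 0.24, adjusted p = 0.00216). Msmo1, the sterol C4-methyl oxidase, was 10.56, 10.05 and 10.32 against 12.16, 12.16 and 12.65, a difference of −2.02 (SE 0.18, adjusted p = 0.00131). Control 3 had the highest value in each of these genes. Smaller falls were seen for Sc5d, the sterol C5-desaturase (−1.78, adjusted p = 0.000441), and Nsdhl, which removes the C4 carboxyl group (−1.56, adjusted p = 0.000613). Dhcr7, which catalyses a last reduction to cholesterol, fell by 1.30 on the log2 scale (adjusted p = 0.00179). Ebp, the sterol isomerase, had the smallest fall among the genes that passed, at 9.35 ± 0.02 against 10.04 ± 0.15 (mean ± SD, n = 3 each, difference −0.68, 1.60-fold lower, adjusted p = 0.00733).

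**Figure D1:**
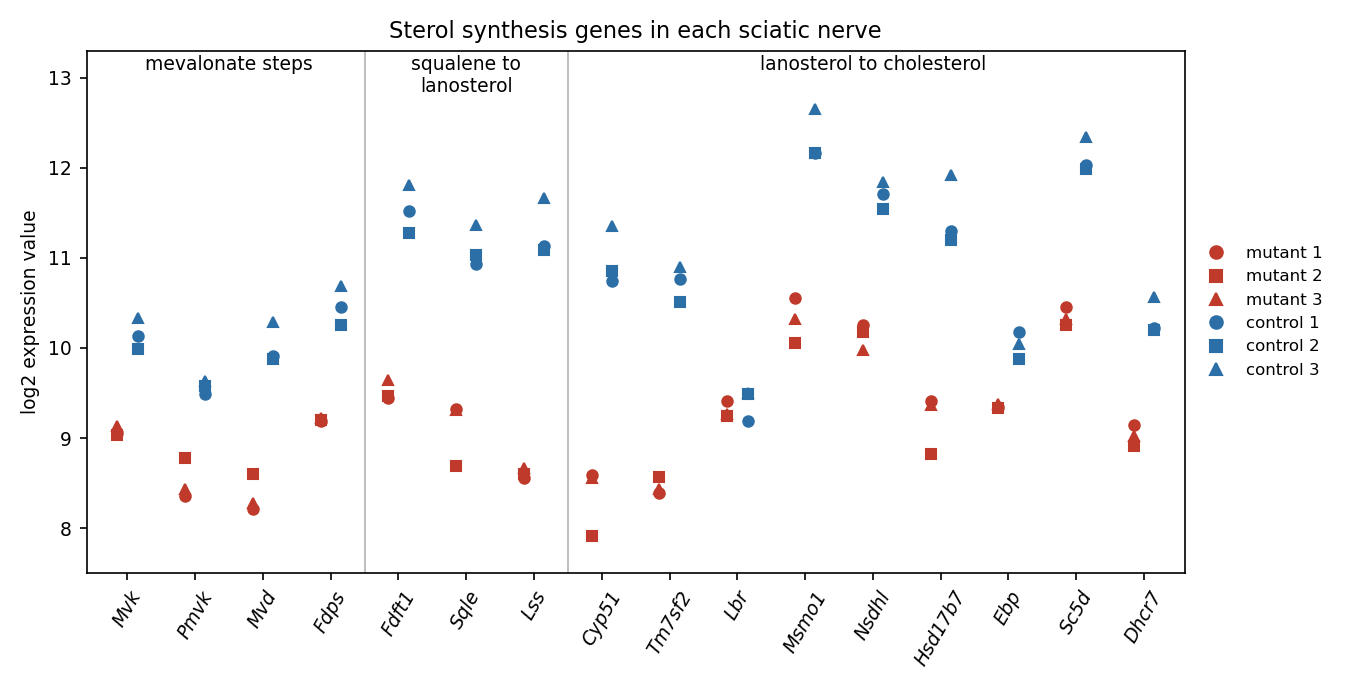
Log2 expression values (vertical axis) of the 16 measured synthesis genes (horizontal axis, in pathway order) in each of 3 mutant (red) and 3 control (blue) nerves, with 1 point per mouse. Mutant points lie below all control points in 15 genes and overlap with them in Lbr.

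Tm7sf2 and Lbr encode the 2 sterol C14-reductases, which serve the same step, and they differed. Tm7sf2 measured 8.39, 8.57 and 8.44 in the mutants against 10.77, 10.51 and 10.90 in the controls, with no overlap (difference −2.26, SE 0.12, 4.79-fold lower, adjusted p = 0.000227). Lbr, which is also a protein of the inner nuclear membrane that binds lamin B, measured 9.41, 9.25 and 9.27 against 9.19, 9.49 and 9.50. The Lbr groups overlapped, with control 1 the lowest of all 6 samples, and the difference was −0.09 (95% confidence interval −0.35 to 0.18, adjusted p = 0.716). The interval leaves room for a small change of Lbr in either direction and excludes one as large as that of Tm7sf2. Within each sample the value of Tm7sf2 minus that of Lbr was −0.84 ± 0.17 in mutants and 1.33 ± 0.29 in the controls (mean ± SD, n = 3 each), a shift of −2.17 (SE 0.19). A two-sided exact permutation test over the samples gave p = 0.10, the smallest that 3 against 3 allow. That value was also 0.10 when adjusted over the 3 gene pairs so compared.

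Samples differed together across the pathway. Control 3 had the highest value in 15 of the 16 synthesis genes. Mutant 2 had the lowest in 8, mutant 1 in 6 and mutant 3 in 1. The mean of the 16 genes, each centred on its mean over all samples, was −0.77, −0.90 and −0.80 in mutants and 0.74, 0.68 and 1.05 in the controls. The median difference was −1.59, −1.55 and −2.02 between samples numbered 1, 2 and 3, and −1.66 among females and −1.94 among males, with sex read from Xist and Y-linked genes. Sex was not balanced between the groups. Mutant 3 was the only female mutant and control 3 the only male control, so each of these differences by sex rests on a single mouse on 1 side. With any 1 sample left out, 15 of the 16 genes still passed as lower.

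Among markers of the nerve's cells, the myelin list moved with these genes, and the other lists did so in part or not at all. For comparison, 3.89% of all genes were lower and 5.74% higher. Of 11 measured myelin markers all 11 were lower (median −3.55), with sample means of 8.90 to 9.29 in mutants and 12.36 to 12.77 in the controls. Control 3 was the highest sample and mutant 2 the lowest in all 11, as in many synthesis genes. Of 13 measured Schwann cell lineage markers, 5 were lower, 1 was higher and 7 did not pass (median −0.59, sample means 9.85 to 10.27 against 10.40 to 10.90). The lower ones were Kcna1, a potassium channel gene, at −1.69 on the log2 scale (adjusted p = 0.00417), Art3 at −1.53 (adjusted p = 0.00312), S100b at −1.51 (adjusted p = 0.00559), Erbb3, the neuregulin receptor gene, at −1.14 (adjusted p = 0.0162) and Cryab at −0.72 (adjusted p = 0.0105). Sox2, a transcription factor of immature Schwann cells, was the 1 that was higher, by 1.62 (adjusted p = 0.0102). Without mutant 1 or 3 the calls for Erbb3 (adjusted p = 0.0635 and 0.051) and Cryab (0.0576 and 0.057) were lost, and without mutant 3 that for Sox2 (0.0521). Sox10 stood at −0.74 (adjusted p = 0.0639) and Cdh19 at 0.03 (adjusted p = 0.946). In whole nerves, fewer cells of a type and less RNA per cell cannot be told apart. The part of cell composition in the falls was not tested.

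Of 14 macrophage markers none passed, and all 14 stood higher in the mutants, by a median of 0.33. Their sample means ran from 9.08 to 9.38 in mutants and from 8.81 to 9.12 in the controls, and Lyz2 differed most, at 0.58 (adjusted p = 0.065). With that mean as a covariate 5 synthesis genes passed instead of 15 (Fdft1, Lss, Tm7sf2, Nsdhl and Sc5d), and 79 genes in all were lower instead of 787. The median of the synthesis genes was then −1.60, close to the value without the covariate. The macrophage mean itself differed by 0.32 between the groups (SD 0.16 in each), so this fit cannot well tell it apart from genotype. Of 10 fibroblast markers 3 were higher and none was lower (median 0.26, sample means 11.72 to 12.05 in mutants and 11.36 to 11.77 in the controls). These were Lum, at 0.99 (adjusted p = 0.00378), Fbln1, at 0.62 (adjusted p = 0.0419), and Pdgfra, at 0.51 (adjusted p = 0.0209). Of 10 endothelial markers Vwf (−0.43, adjusted p = 0.0283) and Cldn5 (−0.42, adjusted p = 0.035) were lower and none was higher (median −0.081, sample means 10.08 to 10.16 against 10.06 to 10.46). Of all genes 3.89% were lower and 5.74% higher. With 1 sample left out, the call for Lum held in all 6 fits. That for Pdgfra was lost in 4 (without mutant 1 or 3 or control 2 or 3, adjusted p 0.0569 to 0.105), for Fbln1 in 5 (all but mutant 2, 0.0532 to 0.163), for Cldn5 in 5 (all but control 2, 0.0723 to 0.129) and for Vwf in all 6 (0.0576 to 0.133). With the replicate block Vwf (adjusted p = 0.0592) and Cldn5 (0.0503) did not pass. The part of these cells in the sterol results was not tested. Skeletal muscle markers followed the replicate number, with sample means of 7.67 to 12.75 in mutants and 7.75 to 12.83 in the controls. None of the 18 passed. Without both samples numbered 2, the muscle-rich ones, the count of lower genes overall was 453. Zeb2 itself was lower, at 10.88 ± 0.19 against 11.75 ± 0.23 (mean ± SD, n = 3 each, difference −0.88, adjusted p = 0.0137), and that call was lost without mutant 1 (adjusted p = 0.0522).

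Among the 5 regulators, Insig1 was lower and the other 4 did not pass (median −0.14). The shares over all genes were 3.89% lower and 5.74% higher. Insig1, itself a target gene of SREBP2, measured 10.68, 11.07 and 10.75 in the mutants against 12.36, 12.27 and 12.44 in the controls. The groups were far apart, with a difference of −1.52 (SE 0.12, 2.87-fold lower, adjusted p = 0.000834). Insig2, the other retention protein of SCAP, measured 9.96, 10.09 and 9.92 against 9.99, 10.26 and 9.96. Its groups overlapped and its difference was −0.08 (95% confidence interval −0.34 to 0.18, adjusted p = 0.717), or 0.013 without control 2. Within samples, Insig1 minus Insig2 was 0.85 ± 0.13 in mutants and 2.29 ± 0.24 in the controls (mean ± SD, n = 3 each), a shift of −1.44 (SE 0.16, two-sided exact permutation p = 0.10, the smallest possible).

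Srebf2 measured 10.90, 10.53 and 10.87 in the mutants against 11.20, 11.16 and 11.59 in the controls. Each mutant value lay below each control value, but the difference of −0.55 (SE 0.15) did not pass (adjusted p = 0.0799). With a block for the replicate number it passed (adjusted p = 0.0385), as it did with the mean of adipocyte markers as a covariate (−0.65, adjusted p = 0.0149). Scap measured 10.58, 10.26 and 10.54 against 10.52, 10.45 and 10.84, so that its groups overlapped (−0.14, 95% confidence interval −0.48 to 0.19, adjusted p = 0.615). Mylip encodes the ubiquitin ligase, also called IDOL, that degrades the LDL receptor and is a target of LXRs. It was 10.52, 10.08 and 10.34 in the mutants against 9.89, 9.72 and 9.95 in the controls. All its mutant values lay above the controls, as in 16.3% of all genes, and the difference of 0.46 (SE 0.13) did not pass (adjusted p = 0.0821). Mylip passed as higher with the block (adjusted p = 0.0458), with array weights (0.64, adjusted p = 0.0115), with the mean of muscle markers as a covariate (adjusted p = 0.0497) and without mutant 2 (0.58, adjusted p = 0.0344).

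Of the 4 transport and storage genes 3 were lower and Npc1 did not pass (median −0.72, against −0.020 for all genes). Among all genes 3.89% were lower and 5.74% higher. Stard4, a soluble carrier that moves cholesterol between membranes and another SREBP2 target, measured 8.30, 7.89 and 8.26 in the mutants against 9.38, 9.51 and 9.82 in the controls. The difference was −1.42 (SE 0.16, 2.67-fold lower, adjusted p = 0.00286), of the size seen among the synthesis enzymes. Lipa, the lysosomal acid lipase that frees cholesterol from its esters, measured 10.31, 10.06 and 10.34 against 11.09, 10.97 and 11.37, without overlap (−0.91, SE 0.13, adjusted p = 0.00762). Npc2 and Npc1 hand this cholesterol out of the lysosome. Npc2 measured 10.23, 10.20 and 10.18 in the mutants against 10.82, 10.55 and 10.85 in the controls, a difference of −0.54 (SE 0.10, adjusted p = 0.021). The call for Npc2 was lost without mutant 1, 2 or 3 (adjusted p = 0.0881, 0.0509 and 0.0983) and without control 1 or 3 (0.0573 and 0.057), so that the count of lower genes was 2 there. Npc1 measured 11.14, 10.77 and 11.14 against 11.27, 11.26 and 11.67. Its values did not overlap but lay close together (−0.38, SE 0.16, adjusted p = 0.211), and it passed with the adipocyte mean as a covariate (−0.49, adjusted p = 0.036). With the macrophage mean as a covariate none of the 4 passed.

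**Figure D2:**
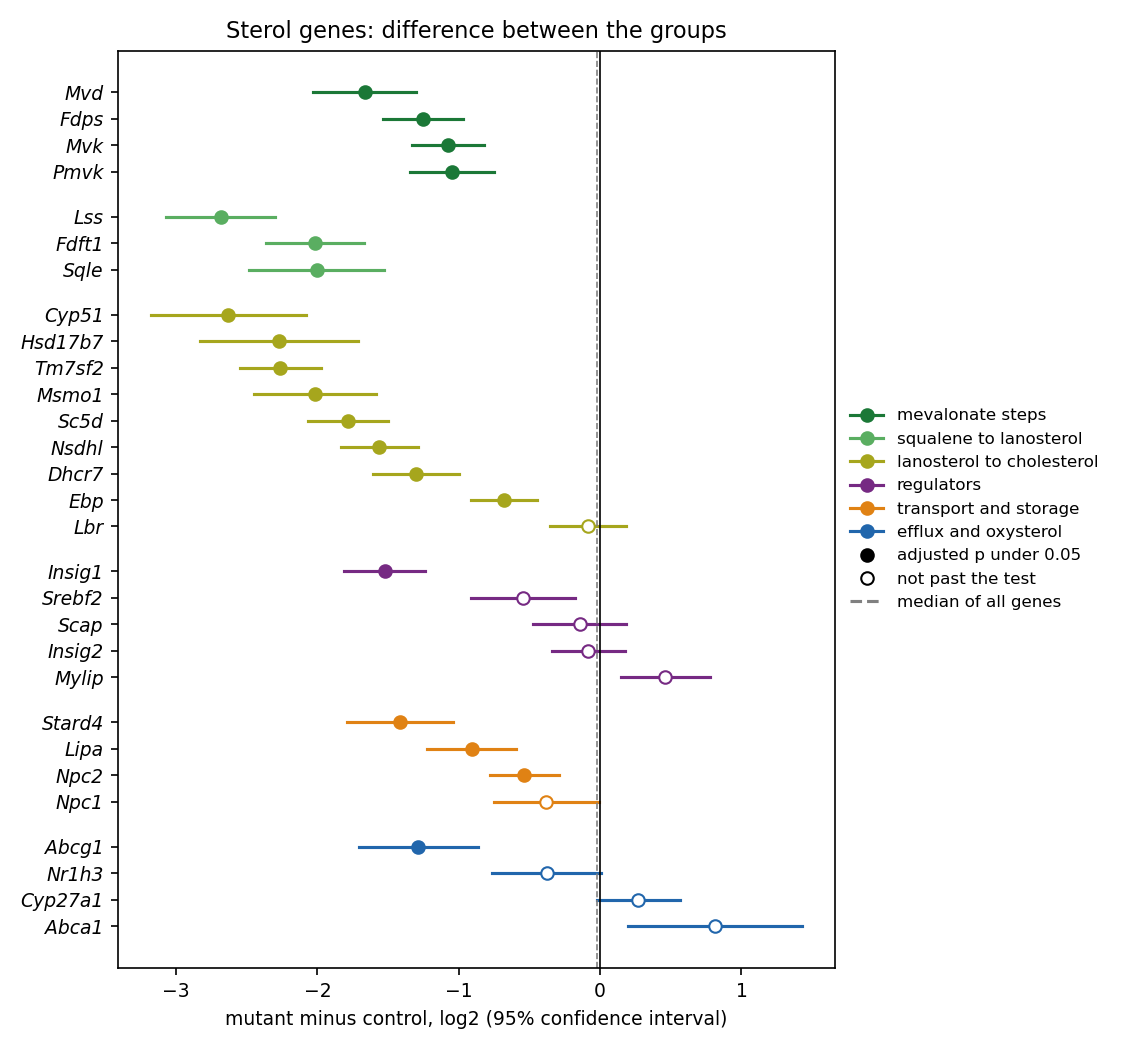
Mutant minus control differences on the log2 scale (horizontal axis) with 95% confidence intervals for the 29 measured sterol genes (vertical axis), grouped by role. Filled points passed at an adjusted p under 0.05, and open points did not. The dashed line is the median of all genes, −0.020, and the filled points all lie to its left, from −2.69 for Lss to −0.54 for Npc2.

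Of the 4 efflux and oxysterol genes, Abcg1 was lower, none was higher and 3 did not pass (median −0.053). Over all genes the shares were 3.89% lower and 5.74% higher. Abcg1, which loads cholesterol onto lipoprotein particles, measured 8.26, 8.32 and 8.08 in the mutants against 9.26, 9.36 and 9.90 in the controls. The groups were separate, and the difference was −1.28 (SE 0.18, 2.44-fold lower, adjusted p = 0.00599). Abca1, the transporter that loads lipid-poor apolipoproteins, lay on the other side. It measured 10.82, 10.59 and 10.72 in the mutants against 10.44, 9.92 and 9.33 in the controls. The controls were widely spread, all below the mutants, and the difference of 0.81 (SE 0.26, 95% confidence interval 0.20 to 1.43) did not pass (adjusted p = 0.113). It passed without control 1 (1.09, adjusted p = 0.0254), with array weights (0.90, adjusted p = 0.0145) and with the adipocyte mean as a covariate (1.01, adjusted p = 0.0138). Within samples, Abcg1 minus Abca1 was −2.49 ± 0.20 in mutants and −0.39 ± 0.89 in the controls (mean ± SD, n = 3 each), a shift of −2.10 (SE 0.53, two-sided exact permutation p = 0.10, the smallest possible).

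Nr1h3, which encodes LXR alpha, measured 9.03, 9.16 and 9.19 against 9.87, 9.37 and 9.27. Control 1 stood highest, and the difference was −0.38 (SE 0.16, adjusted p = 0.233). Cyp27a1, the sterol 27-hydroxylase that makes an oxysterol, measured 9.95, 10.04 and 10.15 against 9.89, 9.90 and 9.53 (difference 0.27, SE 0.12, adjusted p = 0.264). The adipocyte marker means were 10.19, 10.85 and 10.02 in the mutants against 11.96, 11.04 and 9.59 in the controls, so that among the controls Abca1 and Nr1h3 had the same order as these means. Among the mutants they did not. Mutant 2 had the highest adipocyte mean and the lowest Abca1 value, and mutant 3 the lowest mean and the highest Nr1h3 value. None of the 15 measured adipocyte markers passed, and their mean was widely spread among the controls (SD 1.20, against 0.44 in the mutants). The part of fat in the values of these genes was not tested. The median of the efflux genes was 0.067 without control 1 and −0.30 with the macrophage mean as a covariate, where Abcg1 did not pass either (−0.90, adjusted p = 0.207).

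**Figure D3:**
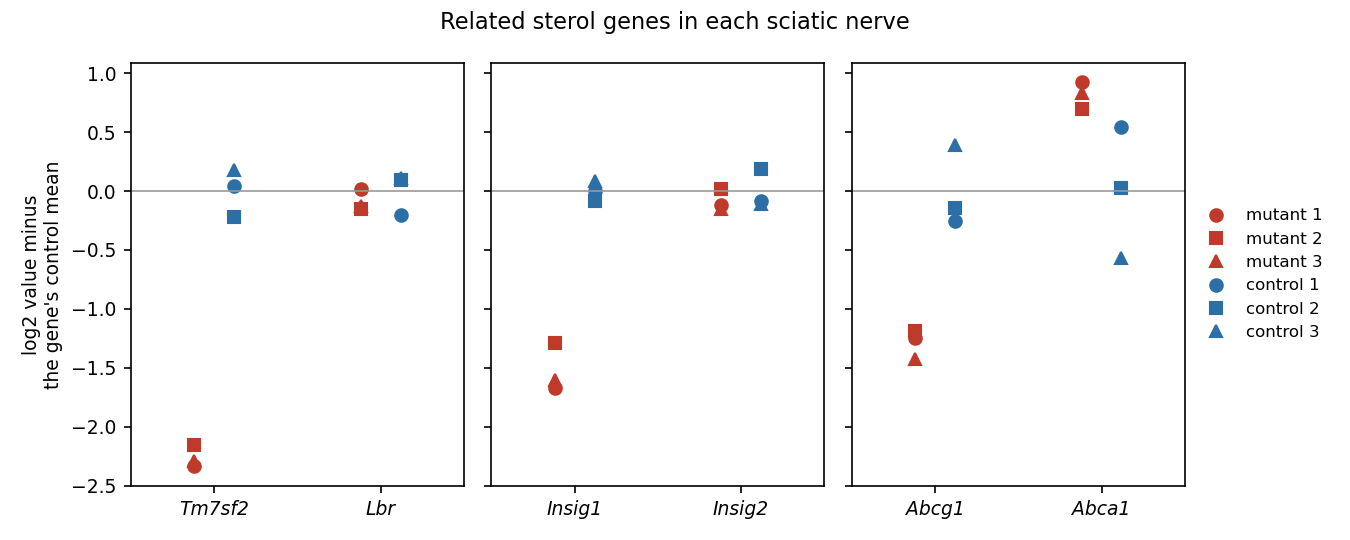
Log2 values minus the gene's control mean (vertical axis) for 3 pairs of related genes, Tm7sf2 and Lbr, Insig1 and Insig2, and Abcg1 and Abca1, in each mutant (red) and control (blue) nerve. In the mutants Tm7sf2, Insig1 and Abcg1 lie far below the control mean, while Lbr and Insig2 lie near it and Abca1 above it.

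Set side by side within each nerve, synthesis and efflux separated the groups differently. The mean of the centred efflux genes was −0.083, −0.072 and −0.061 in mutants and 0.27, 0.040 and −0.090 in the controls, and the groups overlapped. Synthesis minus efflux was −0.69, −0.83 and −0.73 in mutants and 0.47, 0.64 and 1.14 in the controls. The groups did not overlap, and their means differed by −1.50. With Abca1, Abcg1 and Mylip, all LXR target genes, in place of the efflux list, the difference was −1.64. The synthesis mean alone differed by −1.65 and the efflux mean by −0.14, so these differences came almost wholly from the synthesis genes. These means describe a list chosen with results of these data known and carry no test. The efflux mean joins genes that lay on opposite sides of 0, so its small difference does not describe any 1 of them. That mean also rests on only 4 genes. In a further list of efflux and oxysterol genes, described below, 3 of 10 were lower and none was higher. The shares of all genes were 3.89% and 5.74%.

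**Figure D4:**
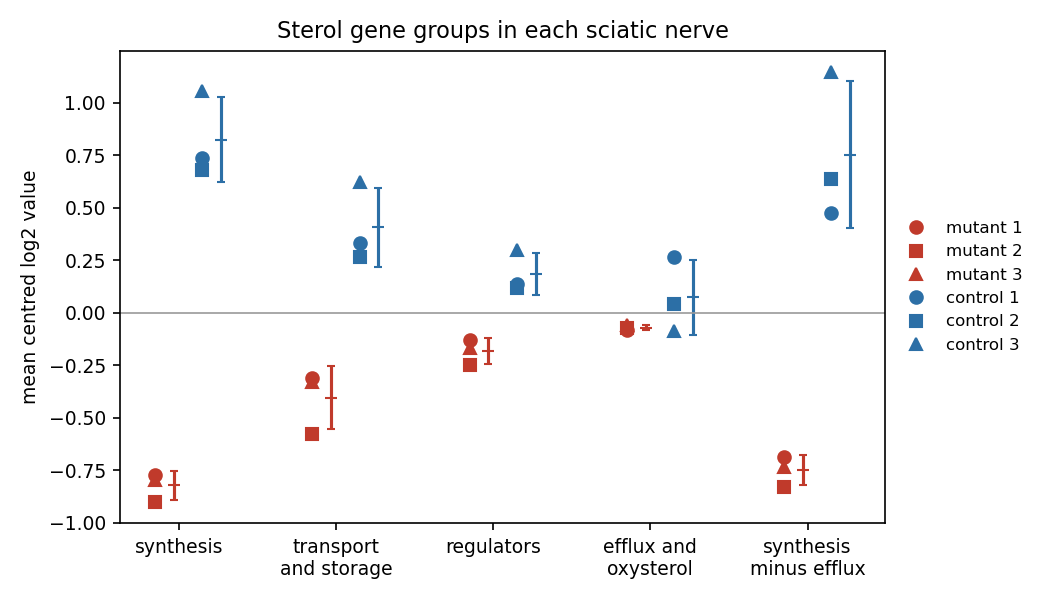
Mean of the centred log2 values of each sterol gene group (vertical axis) in each mutant (red) and control (blue) nerve, with group mean and SD (n = 3) beside the points. The synthesis means are separate, at −0.90 to −0.77 against 0.68 to 1.05, while the efflux and oxysterol means overlap.

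Other genes of the pathway, listed by function, mostly did not pass. Each list still held at least 1 lower gene and none that was higher. Of all genes, 3.89% were lower and 5.74% higher. In further sterol synthesis 1 of 2 measured genes was lower, Erg28, a scaffold of the C4-demethylating enzymes (−0.82, adjusted p = 0.0165, and 0.0565 without mutant 1). The branches of isoprenoids that leave the pathway before squalene had 1 of 10 measured genes lower and none higher, with a median of −0.020. That gene was Fntb, a subunit of protein farnesyltransferase (−0.82, adjusted p = 0.0272). Fntb did not pass without mutant 1, 2 or 3 (adjusted p = 0.0875, 0.0727 and 0.0929). Among 14 further regulators 1 was lower, Rxrg, a retinoid X receptor and as such a possible partner of LXRs. Rxrg measured 7.19, 8.54 and 7.28 in the mutants against 9.36, 9.97 and 9.76 in the controls (−2.03, SE 0.36, adjusted p = 0.0163), with mutant 2 highest of the mutants. Its call was lost on leaving out mutant 1 (adjusted p = 0.064), mutant 3 (0.0727) or control 2 (0.0565). Srebf1, the relative of Srebf2 that acts mainly on fatty acid synthesis, stood at 0.13 (adjusted p = 0.782).

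Among 14 further transport genes 2 were lower, the oxysterol-binding protein relatives Osbpl1a (−1.04, adjusted p = 0.00756) and Osbpl5 (−1.03, adjusted p = 0.0053). In further efflux and oxysterol genes 3 of 10 were lower and none was higher. They were the lipid transporters Abca2 (−1.25, adjusted p = 0.0112) and Abca5 (−0.66, adjusted p = 0.0351) and the oxysterol hydroxylase Cyp39a1 (−0.93, adjusted p = 0.0386). Abca5 did not pass without any 1 sample other than control 1 (adjusted p = 0.0677 to 0.136), nor did Cyp39a1 without mutant 1, 2 or 3 or control 2 (0.0579 to 0.135). The medians of these lists lay between −0.37 and 0.0074, nearer to the all-gene value than the −1.72 of the synthesis enzymes.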

How the data were processed

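The data are log2 values as deposited by the authors in a single table. That they are on base 2 follows from their range, 3.55 to 14.52, and the array medians lay between 8.00 and 8.08. Per the submitters' processing notes limma was used, with no version or role, and no source used here gives the background correction, summarisation or normalization. The 21225 probe sets included 20239 with 1 symbol each in the platform annotation, 0 with several and 986 unnamed. Low values may be background, and precision is limited by the 6 arrays.

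The 20239 genes were compared, mutant minus control, by a moderated linear model without a block in limma 3.58.1 under R 4.3.3 (two-sided, 6.89 degrees of freedom), with Benjamini-Hochberg adjustment over all genes. The fit was tested on simulated data. The members, lists, gene pairs and alternatives were chosen with earlier results of these data known. Every member was named. Values by sample were given for the 4 largest differences of each role, for synthesis genes that did not pass and for the pairs, and of other lists up to 3 genes that passed with the largest differences. Further genes, such as markers, were chosen after their values were seen. For samples sharing a number, the deviations from the group means correlated at 0.36, 0.574 and 0.295, all over 0.1. A blocked fit on that number is therefore given beside the calls it changes. Mutant 1 and control 3 correlated at 0.303. Motifs were searched by letters. Figures were drawn with matplotlib 3.10.9.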

Additional observations from a re-analysis of the deposited data

How the results depend on the processing

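Of 20 alternatives, 548 of 580 values of single sterol genes kept direction and call, and the count of synthesis calls (15) changed only with the macrophage mean as a covariate, which left 5, with a median of −1.60 against −1.72. That covariate itself differed between the groups. It gave 87 higher and 79 lower genes in all, 0 lower transport genes and 0 lower efflux genes. The efflux median was then −0.30, and Lbr turned to 0.056 and Insig2 to 0.037. Insig2 ran from −0.14 to 0.013 with 1 sample left out, the latter without control 2. Array weights gave 2411 higher and 1244 lower genes, 1 higher regulator (Mylip) and 1 higher efflux gene (Abca1). The adipocyte covariate gave 1209 lower genes, 2 lower regulators and 1 higher efflux gene, and the muscle covariate 1 higher regulator. With the replicate number as a block, 1 regulator was higher (Mylip) and 2 were lower (Insig1 and Srebf2). That block changed no other call of a sterol gene. Without both samples numbered 2, 453 genes were lower. Leaving out 1 sample gave 502 to 1397 higher and 392 to 744 lower genes, 0 to 1 higher regulators and 0 to 1 higher efflux genes. The causes were not tested.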
